A study of Mus musculus with 12 samples.

Results

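The members described here were the array probes of RefSeq non-coding RNAs, chosen as the non-control spots whose transcript accession begins with NR_ (curated non-coding RNA records) or XR_ (predicted ones). Spots of the same probe were averaged, which gave 1966 probes from 2012 spots, of 55681 probes on the array in all. Of these, 1400 carried an NR_ and 566 an XR_ accession, and together they covered 1793 accessions. A probe was kept as expressed where the scanner marked it well above background in 1 condition of a comparison on 3 or all of its 4 arrays. By that rule 767 members were expressed (539 NR_ and 228 XR_, 694 accessions), of 29361 expressed probes on the whole array. The members just inside the rule, well above background on 3 arrays at best, numbered 79, and those just outside it, on 2 arrays at best, numbered 167. Their median brightness, the mean log2 intensity of the 2 colours, was 6.59 and 6.45.

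The study asked how bradykinin, a peptide that acts on kinin B2 receptors, and the B2 receptor antagonist HOE-140 alter gene expression in neurospheres that carry the APPswe/PS1dE9 transgenes of a mouse model of Alzheimer's disease. Neural progenitor cells came from the telencephalon of C57BL/6 embryos at embryonic day 13, grew as neurospheres with EGF and FGF2, and were then plated on poly-L-lysine and laminin without growth factors for 7 days. All groups shared this strain, age and differentiation protocol. WT cultures were wild type and untreated, APP_WT cultures carried the transgenes and were untreated, and BK_APP and HOE_APP cultures carried the transgenes and received 1 µM bradykinin or 1 µM HOE-140 on days 0, 3 and 6. On day 7 total RNA was extracted, labelled with Cy3 or Cy5 in amounts of 100 ng and hybridised to 2-colour Agilent mouse arrays. There were 12 arrays, 4 for each of 3 comparisons (APP_WT over WT for genotype, then BK_APP and HOE_APP each over APP_WT). APP_WT carried Cy3 on replicates 1 and 2 and Cy5 on replicates 3 and 4 of every comparison. Wild-type cultures received neither drug, so the drugs were measured on the transgenic background alone, and the drug comparisons share the APP_WT condition with the comparison of genotypes. The labels of the HOE_APP arrays name HOE-140 in both channels, so their direction rests on the first-channel labels, the titles and the same dye plan as for bradykinin, and is only likely.

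Non-coding RNAs act as RNA. Long non-coding RNAs (lncRNAs) can build nuclear bodies, act on neighbouring genes or bind proteins, and some serve mainly as host transcripts, whose introns or exons carry small nucleolar RNAs (snoRNAs, which guide the chemical modification of ribosomal RNA) or microRNAs (miRNAs). Transcribed pseudogenes resemble a coding gene but do not encode its protein. In the developing brain, lncRNAs near homeobox genes such as the Dlx cluster mark ventral forebrain neurons, and nuclear RNAs such as Neat1 and Malat1 are abundant in many cell types.

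The RefSeq gene table gave a symbol to 1335 of the 1966 members and to 493 of the 767 expressed ones (434 symbols). Among expressed members, 351 probes (of 1058 on the array) belonged to lncRNA genes, 117 (of 244) to transcribed pseudogenes, 13 (of 19) to non-coding transcripts of coding genes and 12 (of 14) to small structural and other RNAs. The other 274 (of 631) had accessions with no entry in that table and are named by accession. Members were dimmer than other probes, with a median brightness of 7.73 against 8.55 for expressed probes, and a smaller share of them was expressed (39% against 53.2%).

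The sequences below belong to host genes described further on, and RefSeq (build GRCm38.p6) is their source. No test linked them to the measured values. The genes that carry snoRNAs typically begin transcription in a run of pyrimidines, a feature they share with the genes of ribosomal proteins. The first set shows 10 bases before and 20 after the RefSeq start of host genes described below, on the gene's own strand, with the longest run of C and T near the start in capitals.
Snhg5, chr9:88522878-88522907, minus strand: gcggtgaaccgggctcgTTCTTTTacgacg
Snhg1, chr19:8723477-8723506, plus strand: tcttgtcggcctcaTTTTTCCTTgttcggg
Snhg17, chr2:158361490-158361519, minus strand: aagaccacagTTTCCTgtcgcgtggatgtg
Snhg16, chr11:116671650-116671679, plus strand: gcgcaagcgcgatctcgTCCTTTCCgaggt
Snhg12, chr4:132308668-132308697, plus strand: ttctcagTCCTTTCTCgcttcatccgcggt
Snhg15, chr11:6528741-6528770, minus strand: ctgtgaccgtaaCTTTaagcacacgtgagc
The run was 7 bases in Snhg5, 9 in Snhg1, 6 in Snhg17, 8 in Snhg16, 9 in Snhg12 and 4 in Snhg15. Of 13 starts found for 12 of these host genes, 11 had a run of at least 6, against 28.7% of all 32851 starts in the RefSeq table. The starts found for Snhg17 share the same run, which enters the count for each of them.

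The second set shows mature miRNAs of 2 host genes that differed between APP_WT and WT, with the seed (bases 2 to 8, which pair with target RNAs) in capitals. The Mir17hg transcript gives rise to the miR-17-92 cluster, which holds 6 hairpins and 11 mature miRNAs in the table used.
mmu-miR-17-5p, chr14:115043684-115043706, plus strand: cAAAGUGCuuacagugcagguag
mmu-miR-20a-5p, chr14:115044183-115044205, plus strand: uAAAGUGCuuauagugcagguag
mmu-miR-19a-3p, chr14:115044048-115044070, plus strand: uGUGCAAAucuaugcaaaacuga
mmu-miR-19b-3p, chr14:115044358-115044380, plus strand: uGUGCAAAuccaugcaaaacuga
mmu-miR-92a-3p, chr14:115044476-115044496, plus strand: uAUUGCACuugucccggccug
mmu-miR-421-5p, within Ftx, chrX:103572966-103572986, minus strand: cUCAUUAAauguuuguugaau
mmu-miR-374b-5p, within Ftx, chrX:103573112-103573133, minus strand: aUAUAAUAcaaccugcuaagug
The miR-17 and miR-20a sequences share the seed AAAGUGC, and miR-19a and miR-19b share GUGCAAA. The arrays measured the host transcripts, not these mature miRNAs.

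Median signals per array were 59 to 87 in the Cy3 channel and 80 to 105 in the Cy5 channel, with 48.6% to 57.4% of spots well above background. No member spot was saturated. In the genotype comparison, replicates 1 and 3 stood apart in X- and Y-linked transcripts. Xist, the RNA that coats the inactive X chromosome, had log2 ratios of APP_WT over WT of -2.85, -0.41, 3.40 and -0.22 on replicates 1 to 4 (probe A_52_P113537). The Y-linked translation factor gene Eif2s3y had 5.02, 0.02, -5.19 and 0.14 on the same arrays. Xist was thus lower in APP_WT on replicate 1 and higher on replicate 3, Eif2s3y the reverse, and on replicates 2 and 4 both were closer to 0. Xist is itself a member, and its fitted log2 ratio was -0.02 ± 0.49 (SE, n = 4, limma adjusted p = 0.985). Xist was well above background in both conditions of replicates 2 to 4, and in neither condition of replicate 1, on the bradykinin and HOE-140 arrays, where its log2 ratios ranged from -0.72 to 0.46. Results of the genotype comparison were therefore also computed from the arrays of replicates 2 and 4 alone, an alternative chosen after seeing the data.

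**Figure D1:**
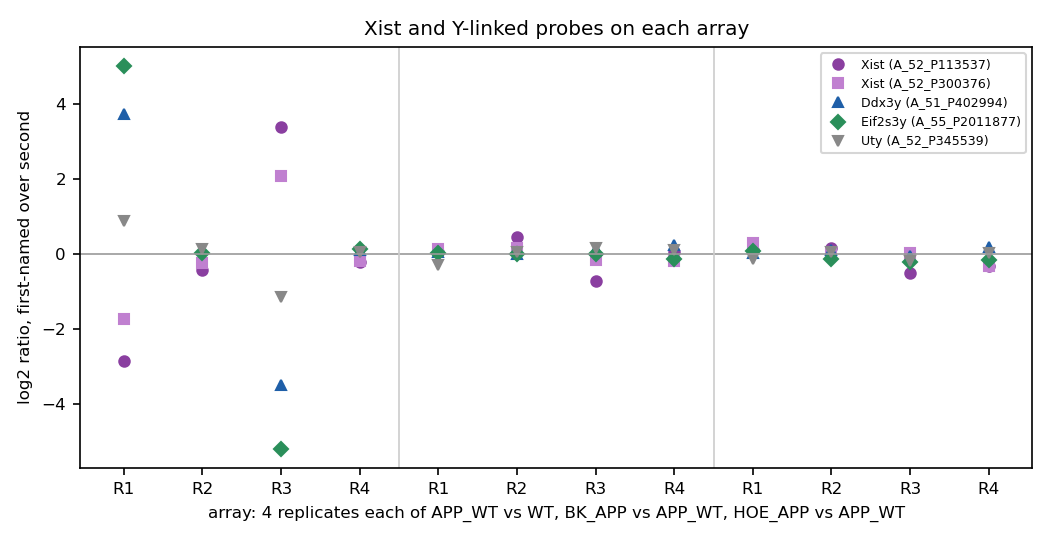
Log2 ratio (vertical axis, first-named condition over second) of 2 Xist probes and of the Y-linked Ddx3y, Eif2s3y and Uty on each of the 12 arrays, grouped by comparison. Points of the genotype comparison lie far from 0 on replicates 1 and 3, up to 5.02 and down to -5.19 for Eif2s3y, and between -0.72 and 0.46 on all other arrays.

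With 12 arrays in 1 limma model with a dye coefficient for each comparison, and Benjamini-Hochberg adjustment over all 29361 expressed probes, 100 of 767 members (13%) differed between APP_WT and WT at an adjusted p below 0.05. The share over all expressed probes was 18.5%. Of the 100, 50 rose in APP_WT (6.52% of members, against 11.6% of all probes) and 50 fell (6.52%, against 7%). The members' median log2 ratio was 0.01 and that of all probes 0.00, and the median size was 0.09 in members and 0.10 in all probes. Most called changes were small, since 5 exceeded 1 and 15 exceeded 0.5 in size on the log2 scale. The called decreases ran from -0.75 to -0.18 and the called increases from 0.17 to 1.71.

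The count depended on the model and the scaling. A fit with the replicate number as a block called 188 members (97 higher and 91 lower), among them all 100, against 28.1% of all probes. With the arrays of replicates 2 and 4 alone, 80 members were called (54 higher and 26 lower), of which 54 were among the 100. Without the array of replicate 3 of this comparison, 59 were called. With the comparison fitted alone and without a dye term, 26 were called, against 6.25% of all probes. The split between increases and decreases moved with the scaling, from 50 and 50 to 36 and 72 after median centring, 50 and 85 with the scanner's processed signals and 32 and 120 with the deposited ratio table. The study's own rule of SAM and rank products, without adjustment for the number of probes, called 61 members (30 higher and 31 lower, 7.95% of members against 12% of all probes).

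By class, 23 lncRNA probes rose and 27 fell (14.2% called). Transcribed pseudogenes gave 8 increases and 6 decreases (12%), and accessions with no table entry gave 16 and 15 (11.3%). Of the 13 non-coding transcripts of coding genes, 2 rose and 1 fell, and of the 12 small structural and other RNAs 1 rose (Slfn10-ps) and 1 fell (Rnu3b1). The called share was 14.1% for NR_ and 10.5% for XR_ probes. It followed brightness in a hump, with 8.2% called in the dimmest of 4 brightness bins, 16% and 22% in the middle bins and 7.91% in the brightest, where 20.2% of other probes were called. In all 4 bins the members' share was below that of other probes.

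In this model the largest increase was that of H2-K2, a pseudogene of the class I major histocompatibility complex. Its 2 probes had log2 ratios of 1.51, 1.84, 1.53 and 1.94 and of 1.45, 1.67, 1.40 and 1.92 on replicates 1 to 4. All 8 values were far above 0, with a fitted log2 ratio of 1.71 ± 0.10 (SE, n = 4 arrays, limma adjusted p = 1.74e-06) for the first probe and 1.61 ± 0.12 (adjusted p = 5.75e-06) for the second. H2-Q5, another class I pseudogene, rose by 0.36 ± 0.06 (adjusted p = 0.00134), with 0.37, 0.31, 0.35 and 0.42 on the 4 arrays. The coding class I genes H2-K1 (1.75), H2-D1 (1.48) and H2-Q7 (1.46) rose over the same range, as did their partner B2m (1.46), while H2-Q4 had 0.12 (adjusted p = 0.607). A pseudogene probe can bind RNA of a near-identical coding relative, so the level of H2-K2 and H2-Q5 themselves is uncertain.

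Members without a gene name in the table followed. XR_168557 had 1.30, 1.67, 1.2 and 1.6, and rose by 1.44 ± 0.11 (adjusted p = 1.02e-05). XR_141331 had 1.26, 1.24, 1.2 and 1.46 with 1 probe (fitted 1.29, adjusted p = 7.8e-06), while its other probe was also called but at 0.27. NR_001592 had 1.08, 0.82, 0.79 and 0.85 (fitted 0.88, adjusted p = 0.0027). All arrays of these 3 transcripts were above 0. XR_108022 (fitted 0.76) and NR_038041 (fitted 0.58) were smaller, and 1 array of NR_038041, replicate 2 at 1.01, stood above the other 3.

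Among named lncRNAs, Neat1, the scaffold RNA of nuclear paraspeckles, rose most. Its log2 ratios were 1.55, 1.5, 0.70 and 0.68 on replicates 1 to 4, and the fitted value was 1.11 ± 0.05 (n = 4, limma adjusted p = 2.74e-07). All 4 arrays were above 0, and the arrays with APP_WT in Cy3 gave larger ratios than those with APP_WT in Cy5. The dye term takes up this difference, so the SE does not hold it. 1600029I14Rik had 0.84, 0.57, 1.03 and 1.17 (fitted 0.90 ± 0.06, adjusted p = 5.16e-06), although in WT it was well above background on 1 of 4 arrays, so the size is uncertain. It ran from 0.84 to 2.60 over the alternatives, the highest with the scanner's processed signals, which is above the highest value of either H2-K2 probe (1.89). 1810020O05Rik, a non-coding transcript of a coding gene, had 0.58, 0.97, 0.34 and 0.61 (fitted 0.63, adjusted p = 0.000189). These 10 largest increases stayed past the threshold under all 22 alternatives tried, with the arrays of replicates 2 and 4 alone included.

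The largest decreases were smaller than the largest increases. Gm11627 had -0.48, -1.18, -1.0 and -0.34 (fitted -0.75 ± 0.16, adjusted p = 0.00695), and without the array of replicate 3 the value was -0.58 with an adjusted p of 0.0603. 9130024F11Rik had -0.39, -0.64, -0.91 and -0.50 (fitted -0.61 ± 0.08, adjusted p = 0.000412). All 4 of its arrays were below 0. AA388235 had -0.26, -0.46, -0.54 and -0.46 (fitted -0.43, adjusted p = 0.00177), XR_035383 was fitted at -0.51 (adjusted p = 0.000935) and XR_032590 at -0.41 (adjusted p = 0.00281). 2610028E06Rik (fitted -0.40, adjusted p = 0.00592) was well above background on 1 of 4 arrays in APP_WT, its value ran from -1.29 to -0.33 over the alternatives, and the call was lost with the deposited ratio table (adjusted p = 0.0675).

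A further pair of decreases lost the call without some single arrays. XR_104909 had -0.73, -0.28, -0.73 and -0.08 (fitted -0.45, adjusted p = 0.0124), and gave -0.34 without the array of replicate 1 (adjusted p = 0.0662), -0.29 without that of replicate 3 (adjusted p = 0.088) and -0.18 with replicates 2 and 4 alone (adjusted p = 0.232). Rnu3b1, a gene of the U3 snoRNA that takes part in ribosomal RNA processing, had -0.12, -0.07, -0.54 and -0.81 (fitted -0.39, adjusted p = 0.0261). Its size changed little without replicate 1, 2 or 4 (-0.37, -0.40 and -0.32) and with replicates 2 and 4 alone (-0.44), while the adjusted p was 0.0726, 0.0703, 0.139 and 0.076. In WT no array had Slfn10-ps, a pseudogene of the Schlafen family, well above background, while 3 of 4 arrays measured it in APP_WT. Its fitted log2 ratio was 0.27 (limma adjusted p = 0.0467). The bound on the fold was 1.2, close to the fitted ratio itself, and is an estimate rather than a sure minimum. This bound sets the APP_WT mean against, on each array, the higher of the dimmest signal well above background and the probe's own WT signal.

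**Figure D2:**
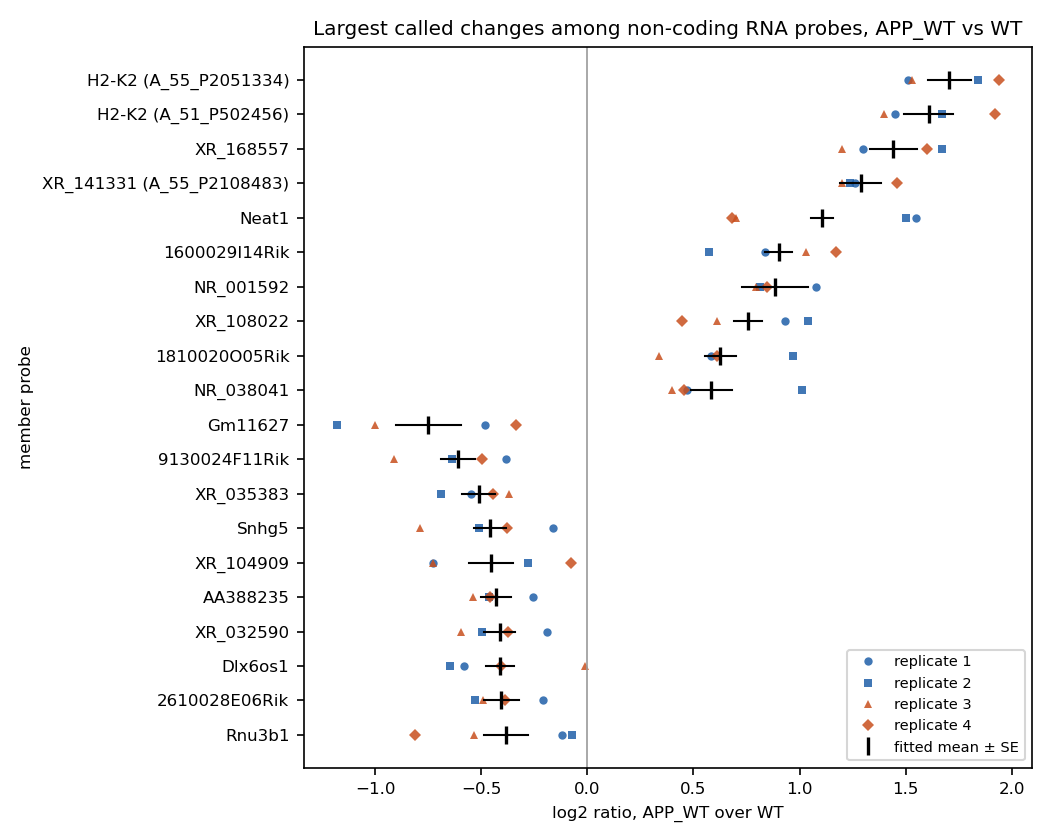
Log2 ratio of APP_WT over WT (horizontal axis) for the 10 largest called increases and 10 largest called decreases with the same sign on all 4 arrays, 1 point per array, with the fitted mean (vertical bar) and its SE (horizontal line). The increases reach 1.71 for H2-K2 and the decreases -0.75 for Gm11627, and blue and orange points mark the opposite dye orientations.

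The host genes of snoRNAs release their snoRNAs from introns, and the spliced remainder is what these probes detect. Of 23 such genes listed, 13 were expressed, with 14 probes. In APP_WT none rose and 3 fell (Snhg5, Snhg1 and Snhg17), which is 21.4% of probes against 18.5% of all expressed probes, and 10 of 14 probes had a fitted value below 0. The median over the 14 was -0.05, with array medians of -0.01, -0.27, -0.06 and 0.08, so the list as a whole did not sit below 0 on every array. With a replicate block 5 probes fell (35.7%, against 28.1% of all probes), both Snhg16 probes added, and with replicates 2 and 4 alone 1 fell, Snhg5.

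Snhg5 had -0.16, -0.51, -0.79 and -0.38 (fitted -0.46 ± 0.08, n = 4, limma adjusted p = 0.00172). It was below 0 on every array and past the threshold under every alternative, with values of -0.56 to -0.36 when each array was left out in turn. Snhg1 had -0.22, -0.28, -0.50 and -0.12 (fitted -0.28 ± 0.07, adjusted p = 0.0242). It was below 0 on all 4 arrays, but its adjusted p rose to 0.0507, 0.0921 and 0.165 without the arrays of replicates 1, 2 and 3, and to 0.192 with replicates 2 and 4 alone. Snhg17 had -0.35, -0.29, -0.07 and -0.02 (fitted -0.18, adjusted p = 0.0427), and stayed past the threshold in 4 of 12 fits that left out 1 array, with adjusted p up to 0.148. The loss followed each of the 4 arrays of this comparison and replicates 1 and 2 of both drug comparisons.

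The Snhg16 probes had fitted values of -0.16 (adjusted p = 0.0831) and -0.21 (adjusted p = 0.0863), and with the replicate block their adjusted p was 0.0317 and 0.0176. Other hosts lay on both sides of 0. Snhg18 had 0.13, Snhg10 0.12, Snhg12 0.09, Snhg15 0.07, Snhg3 -0.02, Snhg7 -0.04 and Snhg6 -0.10. Dancr had -0.22, -0.60, 0.11 and 0.48, the widest spread of the list, around a fitted -0.06. The pyrimidine run was 7 bases in Snhg5, 9 in Snhg1 and 6 in Snhg17, which were called. It was 9 in Snhg12, 8 in Snhg16 and 4 in Snhg15, which were not. A link between the run and these values was not tested. A list of 25 coding genes of the translation machinery was chosen for that kind of start, which was not examined in them here. Among the 25, limma called 0 at the adjusted threshold and 1 at an unadjusted p below 0.05 (median log2 ratio 0.01). SAM with rank products called 0.

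**Figure D3:**
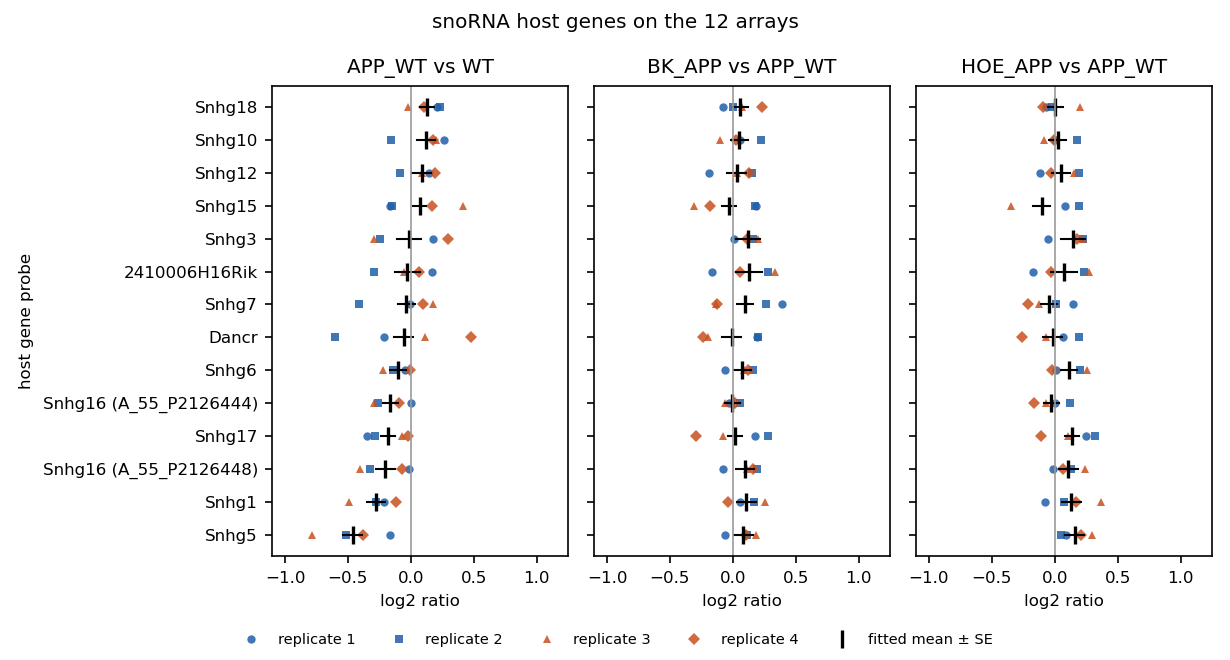
Log2 ratio (horizontal axis) of 14 probes of snoRNA host genes on the 4 arrays of each comparison, with fitted means and SE, in order of the genotype value. Snhg5 at -0.46 and Snhg1 at -0.28 lie lowest in the left panel, and the same probes lie above 0 in the fitted values of both drug panels (0.08 and 0.16 for Snhg5, 0.11 and 0.13 for Snhg1). Snhg15 has 3 arrays in the right panel.

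The miRNA hosts moved in both directions. Of 23 listed genes, 11 were expressed with 14 probes, of which 2 rose (Mir17hg and 1 probe of Pvt1) and 2 fell (Ftx and Mir124-2hg), with a median of 0.10. The called share was 28.6%, against 18.5% of all expressed probes. Mir17hg, host of the miR-17, miR-19, miR-20 and miR-92 sequences shown above, had 0.09, 0.05, 0.81 and 1.1 (fitted 0.51 ± 0.09, n = 4, limma adjusted p = 0.00212). All 4 values were above 0, but replicates 1 and 2 barely so, and these are the arrays of the other dye orientation. The call held in each of the 12 fits without 1 array (0.44 to 0.58) and was lost when the comparison was fitted alone (adjusted p = 0.165).

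Pvt1, a lncRNA next to Myc, had 0.55, 0.26, 0.28 and 0.30 with probe A_55_P2051254 (fitted 0.35 ± 0.09, adjusted p = 0.0225). Its other probe had 0.09 (adjusted p = 0.239), and Myc itself -0.04. The Pvt1 call was lost without the array of replicate 1 (0.27, adjusted p = 0.105), 3 (0.0795) or 4 (0.0879). Ftx, in the X-inactivation centre and host of the miR-421 and miR-374b sequences above, had -0.48, -0.34, 0.08 and -0.17 (fitted -0.23 ± 0.06, adjusted p = 0.0205). It was above 0 on replicate 3 alone, the array with the highest Xist ratio, and the call was lost without replicate 1 (-0.19, adjusted p = 0.0911) or replicate 4 (-0.16, adjusted p = 0.128). With replicates 2 and 4 alone, where Xist differed least, Ftx had -0.25 (adjusted p = 0.0456).

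Mir124-2hg, a host of miR-124, the abundant miRNA of neurons, had 0.13, -0.88, -0.53 and -0.35 (fitted -0.41 ± 0.12, adjusted p = 0.0427). Replicate 1 was above 0 and the other arrays below it. The call stood in 1 of 12 fits without 1 array, and without replicate 2 the value was -0.16 (adjusted p = 0.202), whereas with replicates 2 and 4 alone it was -0.62 (adjusted p = 0.000911). The remaining hosts did not pass the test. Mir22hg had 0.24 (adjusted p = 0.0836), Mir99ahg 0.20 (adjusted p = 0.119), Mirg 0.11, Mir9-3hg -0.02, Mir100hg -0.01 and Dleu2 -0.08, and 3 probes of Meg3, a maternally expressed imprinted lncRNA, had 0.06, 0.14 and 0.15. With a replicate block Mir99ahg was also called, and 3 probes rose and 2 fell (35.7%, against 28.1% of all probes).

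**Figure D4:**
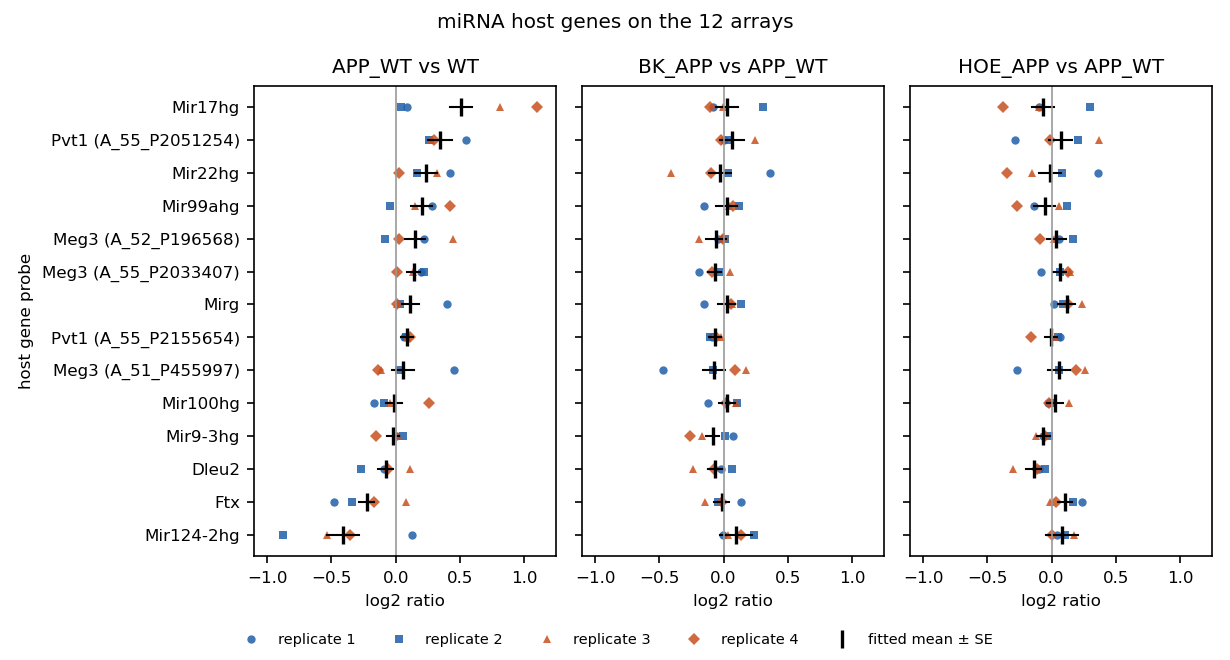
Log2 ratio (horizontal axis) of 14 probes of miRNA host genes on the 4 arrays of each comparison, with fitted means and SE. Mir17hg at 0.51 is highest in the genotype panel with its replicates 3 and 4 at 0.81 and 1.1, Mir124-2hg at -0.41 is lowest, and fitted values in both drug panels lie near 0.

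Of the abundant lncRNAs, 6 genes were expressed with 13 probes, of which 2 rose (Neat1 and Pvt1) and 1 fell. The called share was 23.1%, against 18.5% of all expressed probes. Malat1, an RNA of nuclear speckles whose gene lies beside Neat1, had 0.39, 0.24, -1.01 and -0.72, with a fitted -0.28 ± 0.06 (n = 4, limma adjusted p = 0.00737). The arrays with APP_WT in Cy3 were above 0 and those with APP_WT in Cy5 below it, so the sign of the raw ratio turned with the dye. Without a dye coefficient the adjusted p was 0.368, fitted alone it was 0.585, and without the array of replicate 3 the value was -0.20 (adjusted p = 0.0564). Tug1 had -0.17 (adjusted p = 0.0528), -0.18 (adjusted p = 0.0536) and -0.16 with its 3 probes. Norad, which binds Pumilio proteins, had 0.16, 0.15, 0.03 and 0.00. With a replicate block 2 Tug1 probes and 1 Norad probe were also called (46.2% of the list, against 28.1% of all probes).

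Among neural lncRNAs, 13 genes were expressed with 16 probes, of which 1 rose (Celrr) and 2 fell (Dlx6os1 and Peg13). The called share was 18.8%, near the 18.5% of all expressed probes. Dlx6os1, the antisense partner of Dlx6 in the ventral forebrain, had -0.58, -0.65, -0.01 and -0.41 (fitted -0.41 ± 0.07, n = 4, limma adjusted p = 0.00181). Replicate 3 was near 0 and the others lower, and the call was lost when the comparison was fitted alone (adjusted p = 0.0807). Dlx6 fell by 0.27 on the log2 scale (adjusted p = 0.0158), Dlx5 by 0.44 (adjusted p = 0.00115) and Dlx1 by 0.59 (adjusted p = 0.000105). These homeobox factors act in the development of GABAergic interneurons, while Gad1 and Gad2, which make GABA in such neurons, rose by 0.33 (adjusted p = 0.0185) and 0.30 (adjusted p = 0.0113). Dlx1as, antisense to Dlx1, had -0.10 (adjusted p = 0.22).

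Celrr had 0.42, 0.41, 0.35 and 0.35, 4 closely spaced values (fitted 0.38 ± 0.06, adjusted p = 0.00213). Peg13, an imprinted RNA transcribed inside Trappc9, had -0.20, -0.07, -0.24 and -0.41 (fitted -0.23 ± 0.06, adjusted p = 0.0215), while Trappc9 rose by 0.20 (adjusted p = 0.0378). All 4 arrays of Peg13 were below 0, but the call was lost without replicate 1 (adjusted p = 0.0921), without replicate 4 (-0.19, adjusted p = 0.118) and with replicates 2 and 4 alone (-0.24, adjusted p = 0.0863). Six3os1, beside the forebrain homeobox gene Six3, had 0.20 (adjusted p = 0.0522), and passed with the block and with replicates 2 and 4 alone. Other neural members had Pantr1 at 0.10, Emx2os at 0.01 and Gm2694 at -0.12. Of the imprinted lncRNAs, 6 genes with 9 probes, Peg13 alone was called (11.1%, against 18.5% of all expressed probes).

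**Figure D5:**
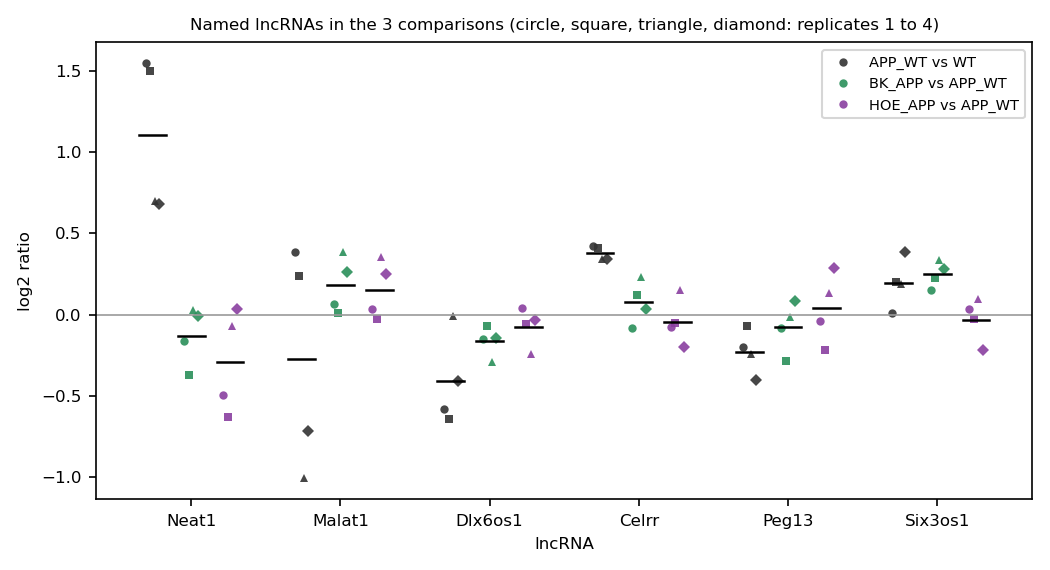
Log2 ratio (vertical axis) of 6 lncRNAs on the 4 arrays of each comparison, with the mean as a horizontal bar and a symbol for each replicate. Neat1 lies between 0.68 and 1.55 in the genotype comparison, Malat1 spans 0.39 to -1.01 there, and Six3os1 is above 0 on all 4 bradykinin arrays.

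Of 18 listed small and RNA polymerase III transcripts, a list that does not hold Rnu3b1, 5 were expressed, of which limma called 0 at the adjusted threshold and 1 at an unadjusted p below 0.05, with 28S ribosomal RNA (Rn28s1) at 0.20, the telomerase RNA Terc at -0.08, the RNase MRP RNA Rmrp at -0.09 and the U12 spliceosomal RNA Rnu12 at -0.16 (adjusted p = 0.0604). No list here was tested as a set, and limma called Rn28s1 and Rnu12 with the replicate block. How well the labelling copies small and structural RNAs was not examined, so their levels, and that of Rnu3b1, are uncertain. Of 36 immune-associated non-coding RNAs listed, 10 had member probes and 3 were expressed by these. With any probe of the array, 16 were measured and 8 expressed. Of the 3 expressed members Neat1 rose, Mir22hg had 0.24 and Mirt1 -0.11 (33.3% called, against 18.5% of all expressed probes).

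Marker genes of several cell types moved with genotype, and their part in the values above was not tested. In APP_WT, 28 of 30 interferon-induced coding genes rose (median log2 ratio 1.40), with a summed level of 23618 to 31735 intensity units against 7010 to 7460 in WT. Of the microglia markers 14 of 15 rose (median log2 ratio 1.6, with the uncalled Itgam at 0.11), with a summed level of 15000 to 19307 against 10094 to 12662, and P2ry12 was not expressed. Of the astrocyte markers 7 of 8 rose (135840 to 150444 against 98385 to 120614), and of the ependymal markers 5 of 5 (6926 to 10290 against 2456 to 3744). All 10 neuron markers were expressed, of which 3 rose and 2 fell (86909 to 101382 against 93027 to 109915), and of 6 progenitor markers 2 rose and 2 fell. Oligodendrocyte markers gave 0 increases and 1 decrease among 8, endothelial markers 1 increase among 4 with Cldn5 and Cdh5 not expressed, and pericyte and fibroblast markers 3 decreases among 6 with Rgs5 not expressed. In RNA of whole cultures, fewer cells of a type and less RNA per cell cannot be told apart.

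Antisense members and their coding partners were compared where both were expressed, which held for 31 members. Of these members 4 were called and 5 had a called partner, and the Dlx6os1 and Dlx6 pair was the only 1 with both. Dlx6 enters for both Dlx6os1 and Dlx6os2, and Dlx6os2 had -0.04 (limma adjusted p = 0.86). The counts are by probe, so genes with several probes enter more than once. Over all expressed probes the called share was 18.5%. Lppos rose by 0.36 (adjusted p = 0.00878) with Lpp at 0.00, Med9os rose by 0.31 (adjusted p = 0.0127) with Med9 at 0.01, and Zbtb11os1 rose by 0.25 (adjusted p = 0.0183) with Zbtb11 at -0.10. Member and partner had the same sign in 15 of 31 pairs.

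The nearest coding gene was considered where it was expressed, and members whose nearest coding gene was not expressed were left out. It was called for 13 of 51 called members with such a neighbour (25.5%), in the same direction for 7 and the opposite for 6. Among 343 uncalled members the share was 24.2%. 1600029I14Rik overlaps Nme9, which rose by 0.49 (adjusted p = 0.000558), and Neat1 lies 5.5 kb from Frmd8, which rose by 0.37 (adjusted p = 0.000727). Snhg1 fell while its neighbour Slc3a2, 0.1 kb away, rose by 0.29 (adjusted p = 0.0048), and AA388235 fell 10.7 kb from H2-K1, which rose. Distances come from the GRCm38.p6 gene table.

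In the RefSeq promoter windows around the start, read on both strands, the interferon-stimulated response element (GAAA, any 2 bases, GAAA) was found in 1 of 17 members that rose and 3 of 23 that fell, against 3.44% of all 32851 windows. The gamma-activated site TTCNNNGAA was found in 5 of 17 and 2 of 23, against 8.3% of windows and 27 of 273 expressed members, and Celrr was among the 5. TATAAA was found in 0 of 17 and 4 of 23 (Snhg1, Snhg5, Dlx6os1 and 2900079G21Rik), against 13.6%. These are matches of letters, and the first 2 patterns can overlap. H2-K2 and Neat1 had no window in the table.

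Bradykinin gave no member past the threshold. The lowest limma adjusted p among 767 members was 0.967, and 0% of all expressed probes were called. At an unadjusted p below 0.05, 33 members (4.3%) passed, 15 higher and 18 lower, against 4.47% of all probes, and SAM with rank products called 10 members (1.3% against 1.82%). In 71 members (9.26%, against 9.64% of all probes) the 4 arrays had the same sign. The median log2 ratio was -0.01 and the median size 0.06. Members with the same sign on all 4 arrays and the largest values are given as a description.

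Lockd, a lncRNA downstream of the cell cycle inhibitor gene Cdkn1b, had 0.38, 0.48, 0.37 and 0.03 in BK_APP over APP_WT (fitted 0.31 ± 0.10, limma unadjusted p = 0.00848 and adjusted p = 0.967). Six3os1 had 0.15, 0.22, 0.33 and 0.28 (fitted 0.25 ± 0.06, unadjusted p = 0.00241, the lowest of all members). Malat1 had 0.07, 0.01, 0.38 and 0.26 (fitted 0.18), with the higher values on replicates 3 and 4, the replicates where its genotype ratio was lower. XR_140711 and Sp3os had 0.20 each. On the lower side XR_001564 had -0.24, NR_002845 -0.22, 4930413E15Rik -0.22, Gdap10 -0.21 and B830017H08Rik -0.21. Gdap10 had -0.33, -0.25, -0.20 and -0.08, a spread smaller than those of NR_002845 and 4930413E15Rik, in which 1 array carried most of the value. Without the array of replicate 1, 1 member was called, 2610206C17Rik (-0.82, adjusted p = 0.0194), whose 4 arrays read -0.19, -1.66, 0.04 and 0.01.

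HOE-140 gave no member past the threshold either, with a lowest limma adjusted p of 0.924 and 0% of all probes called. At an unadjusted p below 0.05, 47 members (6.13%) passed, 20 higher and 27 lower, against 5.03% of all probes, and SAM with rank products called 28 (3.65% against 2.3%), 9 higher and 19 lower. The 4 arrays had the same sign in 94 members (12.3%, against 10.6% of all probes). Neat1 had the lowest unadjusted p of the members, 0.000166, with -0.50, -0.63, -0.07 and 0.03 (fitted -0.29 ± 0.05, adjusted p = 0.924). Replicates 1 and 2 were lower and replicates 3 and 4 near 0, the same division by dye as in the genotype comparison. In BK_APP Neat1 had -0.16, -0.37, 0.03 and -0.01 (fitted -0.13).

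The other members with the same sign on all 4 HOE_APP arrays and the largest values are again a description. XR_168557 had -0.58, -0.40, -0.05 and -0.54 (fitted -0.39, unadjusted p = 0.00515 by limma). 9130024F11Rik had 0.29, 0.48, 0.11 and 0.34 (fitted 0.30, unadjusted p = 0.00313), XR_104909 was at 0.23 and BC051226 at 0.32. All 4 arrays of 9130024F11Rik were above 0. Airn, the antisense RNA of the imprinted Igf2r gene, had -0.28, -0.07, -0.40 and -0.25 (fitted -0.25, unadjusted p = 0.0127). 1700102H20Rik had 0.15, 0.15, 0.95 and 0.14 (fitted 0.35), so that 1 array carried most of its value, and Tyms-ps had 0.20. XR_035714 (-0.33), XR_001564 (-0.29), XR_168396 (-0.28) and XR_141315 (-0.27) completed the lower end. H2-K2 had -0.17 in HOE_APP and 0.15 in BK_APP with its first probe, and the summed interferon-induced level was 18432 to 25326 in HOE_APP against 23456 to 30950 in the APP_WT samples of the same arrays, with 0 of the 30 genes above 0.

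The host genes did not pass the test with either drug. The snoRNA hosts had a median log2 ratio of 0.07 in BK_APP with 11 of 14 probes above 0, and 0.06 in HOE_APP with 10 of 14 above 0. Snhg5 had fitted values of 0.08 and 0.16 and Snhg1 of 0.11 and 0.13. The miRNA hosts had medians of -0.02 and 0.03. The difference between BK_APP and HOE_APP, tested as a contrast of the same limma model, passed the adjusted threshold for 0 members. At an unadjusted p below 0.05, 20 of 767 members passed, against 733 of 29361 expressed probes. This contrast had no replicate block, although same-numbered arrays of the drug comparisons correlated, so it left that pairing out. With the replicate block no member was called for either drug, against 0.0102% of all probes for HOE-140.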

How the data were processed

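Agilent 2-colour arrays of 12 hybridisations were analysed, on 2 slides: the genotype comparison lay on 1 slide and both drug comparisons on the other, so slide and comparison cannot be told apart. The deposited scanner files, written by Feature Extraction 11.0.1.1 per the file headers, hold spot intensities that the authors had not normalised between channels. A log2 ratio table deposited by the authors was read too. Its columns correlated with the scanner ratios at 0.999 to 1 and their medians ran from -0.155 to 0.036. The scale and direction follow from that match, and how they were normalised beyond the scanner software is not given in the sources used here. It served as an alternative.

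Median spot signals were background-corrected (normexp, offset 50) and normalised within each array (loess, span 0.3) with limma 3.58.1 in R 4.3.3. Of 62976 spots, 3671 control spots were left out, flagged outlier spots were set to missing (461 expressed probes lacked a value on some array), and spots of a probe were averaged. A limma model of 12 arrays fitted each comparison's mean and dye effect (6 coefficients, 6 residual and 4.56 prior degrees of freedom), with Benjamini-Hochberg adjustment over 29361 expressed probes and a threshold of 0.05. A log2 ratio is given as the fitted mean ± SE. The number of arrays limits the precision. The methods describe 4 independent biological replicates, but the labels do not tie samples to embryos or litters, so p-values measure the spread between these samples.

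The numbers pair the samples, and every array matched its own number best. Same-numbered arrays correlated at 0.52 to 0.68 between the drug comparisons. Against the genotype comparison, with APP_WT on opposite sides of the ratio, they correlated at -0.59 to -0.30 (BK_APP) and -0.60 to -0.38 (HOE_APP). Same-numbered arrays also share the dye orientation, which can enter these values. Differences between the 2 arrays of an orientation correlated at 0.42 and 0.43 between the drug comparisons. Against the genotype comparison these were -0.2 and -0.51 for BK_APP and -0.24 and -0.44 for HOE_APP. The members, gene lists and tests were chosen with earlier results of these data known. Named genes are the expressed members of the lists, the 10 largest called increases and decreases with 1 sign on all arrays (5 each way, uncalled, for the drugs), and coding partners. H2-Q5, Slfn10-ps, 2610206C17Rik, 2900079G21Rik and the nearest coding genes were named after their values were seen. Alternatives covered background correction, scaling, the filter, the dye term, separate fits, the replicate block, SAM with rank products (100 permutations) and leaving out each array. A fit with slide as a block could not be made.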

Additional observations from a re-analysis of the deposited data

Results flagged for a closer look

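In 6 of 214 groups of 4 arrays, a group being a named probe in a comparison, 1 array lay far from the other 3. In unselected groups chance flags about 5%. Some of these probes were chosen for having 1 sign on all 4 arrays, and some ratios split by dye. That rate therefore cannot be set against the count found. In APP_WT versus WT these were NR_038041, with 1.01 on replicate 2 and 0.398 to 0.47 on the others, Pvt1 (A_55_P2051254), with 0.547 on replicate 1 and 0.257 to 0.301 on the others, and Mirg, a host of many miRNAs in the imprinted Dlk1-Dio3 region, with 0.401 on replicate 1 and 0.0103 to 0.0341 on the others. In BK_APP versus APP_WT, NR_002845 had -0.694 on replicate 3 and -0.0952 to -0.016 on the others, and 4930413E15Rik had -0.615 on replicate 2 and -0.127 to -0.0682 on the others. In HOE_APP versus APP_WT, 1700102H20Rik had 0.95 on replicate 3 and 0.135 to 0.154 on the others. All values are log2 ratios.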

How the results depend on the processing

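For APP_WT versus WT, 100 members were called, and 152 with the deposited ratio table, 63 without a dye coefficient, 26 with the comparison fitted alone and 61 with SAM and rank products. With the replicate block, which pairs arrays by number, 188 were called, and the block ended no call of a named member. Leaving out each array in turn gave 59 to 110, the lowest without replicate 3 of this comparison. For BK_APP the count of 0 became 10 with SAM and rank products and 0 to 1 without single arrays, the 1 without replicate 1. For HOE_APP it became 28 with SAM and rank products and stayed 0 with each array left out in turn. The members' median log2 ratio for APP_WT (0.00528) was -0.0515 after median centring, -0.0358 with processed signals and -0.0883 with the deposited table, and 0.00135 to 0.0186 without single arrays. For BK_APP (-0.0118) it was 0.0181, -0.0272 with processed signals and -0.0146 to 0.00425, the last without replicate 3. For HOE_APP (-0.00542) it was 0.0496 after median centring and -0.0138 to -0.00154. The causes were not tested. With replicates 2 and 4 alone, chosen after seeing the data, 23 of 29 called named probes remained past the threshold and 6 did not. The 3 medians, all close to 0, changed sign under some of these settings. No called named probe changed direction. Signal over background limits the dim members: 601, 431 and 167 were well above background on 0, 1 and 2 arrays at best, and no level is given for them.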
